A study of Homo sapiens with 18 samples.

Results

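The genes described here are 48 genes of the G2 phase and mitosis: cyclins and the cyclin-dependent kinase that starts mitosis, mitotic kinases, spindle checkpoint and kinetochore genes, spindle and cytokinesis genes, and genes for chromosome structure. They were taken by symbol from a table of read counts for 61552 genes, and all 48 were among the 19038 genes with enough reads to be tested. RNA-seq was made from HCT116 cells, a human colorectal cancer line, in which the gene for IκBα (NFKBIA) was edited by knock-in. IκBα is the inhibitor that keeps the transcription factor NF-κB out of the nucleus, tumour necrosis factor (TNF) is a cytokine that triggers its removal, and the study's title places its mutants in a search for roles of IκBα apart from NF-κB. The WT group carries a knock-in IκBα without these mutations. The N108 group carries a mutant whose amino acid change the labels do not spell out, and the M3 group has alanine in place of the histidine at residue 84 and the glutamates at residues 85 and 86. Each genotype was measured untreated and after 40 min with TNF at 0.1 µg/mL, with 3 libraries in each of the 6 groups. All cells were grown in the same serum-containing medium, and no label names an agent that stops or synchronises the cell cycle.

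Genes of this kind are transcribed in a wave late in each cell cycle. Cyclin A and cyclin B join CDK1 to drive the entry into mitosis, Polo and Aurora kinases build the spindle, the spindle checkpoint delays anaphase until every kinetochore is attached, and the anaphase-promoting complex (APC/C) then destroys cyclin B and securin. In growing cultures their summed RNA is widely used as a gauge of proliferation. In bulk RNA, fewer cells in G2 and mitosis and less of these RNAs per cell cannot be told apart.

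Many of these genes share 2 short promoter elements, the cell cycle genes homology region (CHR, TTTGAA, with the variant TTTAAA), which the MuvB complex binds, and the CCAAT box, which NF-Y binds. RefSeq promoter sequences (GRCh38.p14) were matched by symbol for 42 of the 48 genes, with 52 promoters between them. AURKA, TTK, UBE2C, BIRC5, TPX2 and FOXM1 were not matched. The window searched ran from 150 bases before the transcription start to 30 bases from the start on, 180 bases in all, on both strands. The 6 windows printed here show how the elements are laid out in 6 of the genes, 5′ to 3′ on the strand of the gene. Matches to both forms of the CHR and to the CCAAT box on either strand are in capitals.
CCNB1 (chr5:69167000-69167179, + strand): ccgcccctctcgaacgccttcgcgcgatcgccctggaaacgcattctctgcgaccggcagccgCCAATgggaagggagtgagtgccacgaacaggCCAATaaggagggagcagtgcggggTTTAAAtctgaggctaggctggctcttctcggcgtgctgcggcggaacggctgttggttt
CCNB2 (chr15:59104996-59105175, + strand): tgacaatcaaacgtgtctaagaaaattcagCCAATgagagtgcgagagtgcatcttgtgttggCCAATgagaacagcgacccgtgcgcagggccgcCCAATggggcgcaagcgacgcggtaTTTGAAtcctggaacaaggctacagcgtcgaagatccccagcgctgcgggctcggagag
PLK1 (chr16:23678739-23678918, + strand): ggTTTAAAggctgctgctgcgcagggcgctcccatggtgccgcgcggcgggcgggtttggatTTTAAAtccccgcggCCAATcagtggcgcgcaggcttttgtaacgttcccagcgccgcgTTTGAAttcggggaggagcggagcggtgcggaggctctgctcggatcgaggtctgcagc
CDC20 (chr1:43358831-43359010, + strand): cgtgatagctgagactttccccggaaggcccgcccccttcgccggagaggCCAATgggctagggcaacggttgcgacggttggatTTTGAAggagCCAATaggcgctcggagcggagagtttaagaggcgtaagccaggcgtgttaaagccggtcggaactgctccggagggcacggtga
CENPA (chr2:26785906-26786085, + strand): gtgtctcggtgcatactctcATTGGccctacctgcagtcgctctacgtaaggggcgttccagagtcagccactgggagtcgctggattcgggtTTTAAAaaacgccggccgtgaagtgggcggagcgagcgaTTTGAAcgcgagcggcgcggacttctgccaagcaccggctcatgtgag
GTSE1 (chr22:46296720-46296899, + strand): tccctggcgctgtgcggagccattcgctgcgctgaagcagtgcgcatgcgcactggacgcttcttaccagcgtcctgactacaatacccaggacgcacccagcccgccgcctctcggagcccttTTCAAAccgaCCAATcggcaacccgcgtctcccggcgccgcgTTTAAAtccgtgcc

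The window of CCNB2 held 3 CCAAT boxes, starting at -120, -87 and -54 from the transcription start, and a TTTGAA at -29. PLK1 had a CCAAT at -73 and a TTTGAA at -29 as well, with further TTTAAA matches at -148 and -88. CCNB1 had CCAAT at -87 and -55 and a TTTAAA at -30, with no TTTGAA in these letters. In CDC20 a TTTGAA at -65 lay between CCAAT boxes at -100 and -55. GTSE1 and CENPA carried their TTTGAA matches at -26 (read as TTCAAA) and -18. Over the 42 genes, 29 had TTTGAA in a promoter window, 34 had CCAAT and 23 had both. By promoter, TTTGAA stood in 55.8% of the 52 promoters of these genes and in 8.67% of all 35116 promoters in the table, and CCAAT in 71.2% and 25.4%. TTTAAA was found in 25.0% and 6.84%. In 64 promoters of other mitotic genes, a list described further below, TTTGAA stood in 40.6%, CCAAT in 59.4% and TTTAAA in 3.1%. In the untreated lines, the 29 genes with TTTGAA had a median log2 fold change of -0.32 in N108 and -0.68 in M3 against WT, and the 13 genes without it -0.21 and -0.50. Genes without TTTGAA include some with TTTAAA, such as CCNB1. For TTTAAA the medians were -0.28 and -0.54 in 12 genes with it, and -0.28 and -0.64 in 30 without. For CCAAT they were -0.27 and -0.63 in 34 genes with it, and -0.33 and -0.60 in 8 without. Whether any element goes with the size of the fall was not tested. These matches describe the letters of the windows only, and no binding was measured. Among the 119 matches in these windows, 5 neighbouring pairs overlapped.

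The libraries held 49021907 to 76947190 counted reads. Levels are CPM, counts scaled to the library's total, adjusted by the trimmed mean of M-values (TMM). Each of the 48 genes had 47 to 37946 reads per library. NFKBIA, the edited gene, averaged 91.6 CPM in the untreated WT libraries, 30.3 in those of N108 and 77.9 in those of M3, and 758, 276 and 966 with TNF. The point mutations themselves cannot be read from a count. The labels do not say that the 3 libraries of a group came from separate cultures, so each p rests on a spread between libraries that may be technical only. The labels give no number of clones for a genotype, and a mutation and the clone that carries it cannot be told apart. Every pair of replicates differed by more than sampling noise. The 8 epithelial markers checked (keratins, CDH1, EPCAM and others) were all detected, and their summed level was 6547 to 6877 CPM in untreated WT, 5037 to 5311 in N108 and 4299 to 4622 in M3, with KRT18 at -0.40 and -0.99 on the log2 scale. In each mutant line 6 of the 8 were called lower, while CDX2 was called higher in both (0.35 and 0.16) and EPCAM in M3 (0.31). The lower sum moves with the levels of the mitotic genes, and its part in the results was not tested. Over the 18 libraries, 8 fibroblast markers summed to 19.8 to 39.1 CPM (DCN and LUM at 0 throughout), 8 immune markers to 0.267 to 4.30 (NKG7 and MS4A1 at 0 throughout) and 8 endothelial markers to 7.27 to 12.4.

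Without TNF, most of the 48 genes were lower in both mutant lines than in WT, with larger differences in M3. The summed level of the 48 was 5978 ± 113 CPM in WT (mean ± SD, n = 3 here and below), against 5040 ± 57.9 for N108 and 4092 ± 61.5 for M3. In N108, 37 of the 48 passed the test as lower and 0 as higher, where 42.4% of all tested genes were called and 21.6% were called lower. In M3, 47 were called lower and 0 higher, where 52.9% of all tested genes were called and 26.8% called lower. The median log2 fold change of the 48 was -0.28 in N108 and -0.61 in M3, beside 0.0051 and 0.0038 over all genes tested. The test was edgeR's quasi-likelihood test in a single fit of all 6 groups, with Benjamini-Hochberg adjustment over the 19038 genes and a threshold of 0.05. At an unadjusted p under 0.05, 41 were lower and 0 higher in N108 and 48 lower and 0 higher in M3, and DESeq2 called 37 and 47 lower and 0 higher. For unadjusted and DESeq2 counts, here and below, the share of all tested genes is not given, so they are not set against the series as a whole. All 3 mutant libraries were below all 3 WT libraries for 42 genes in N108 and 47 in M3, where 28.1% and 30.6% of all tested genes were so placed. Both comparisons use the same WT libraries and are not independent of each other.

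**Figure D1:**
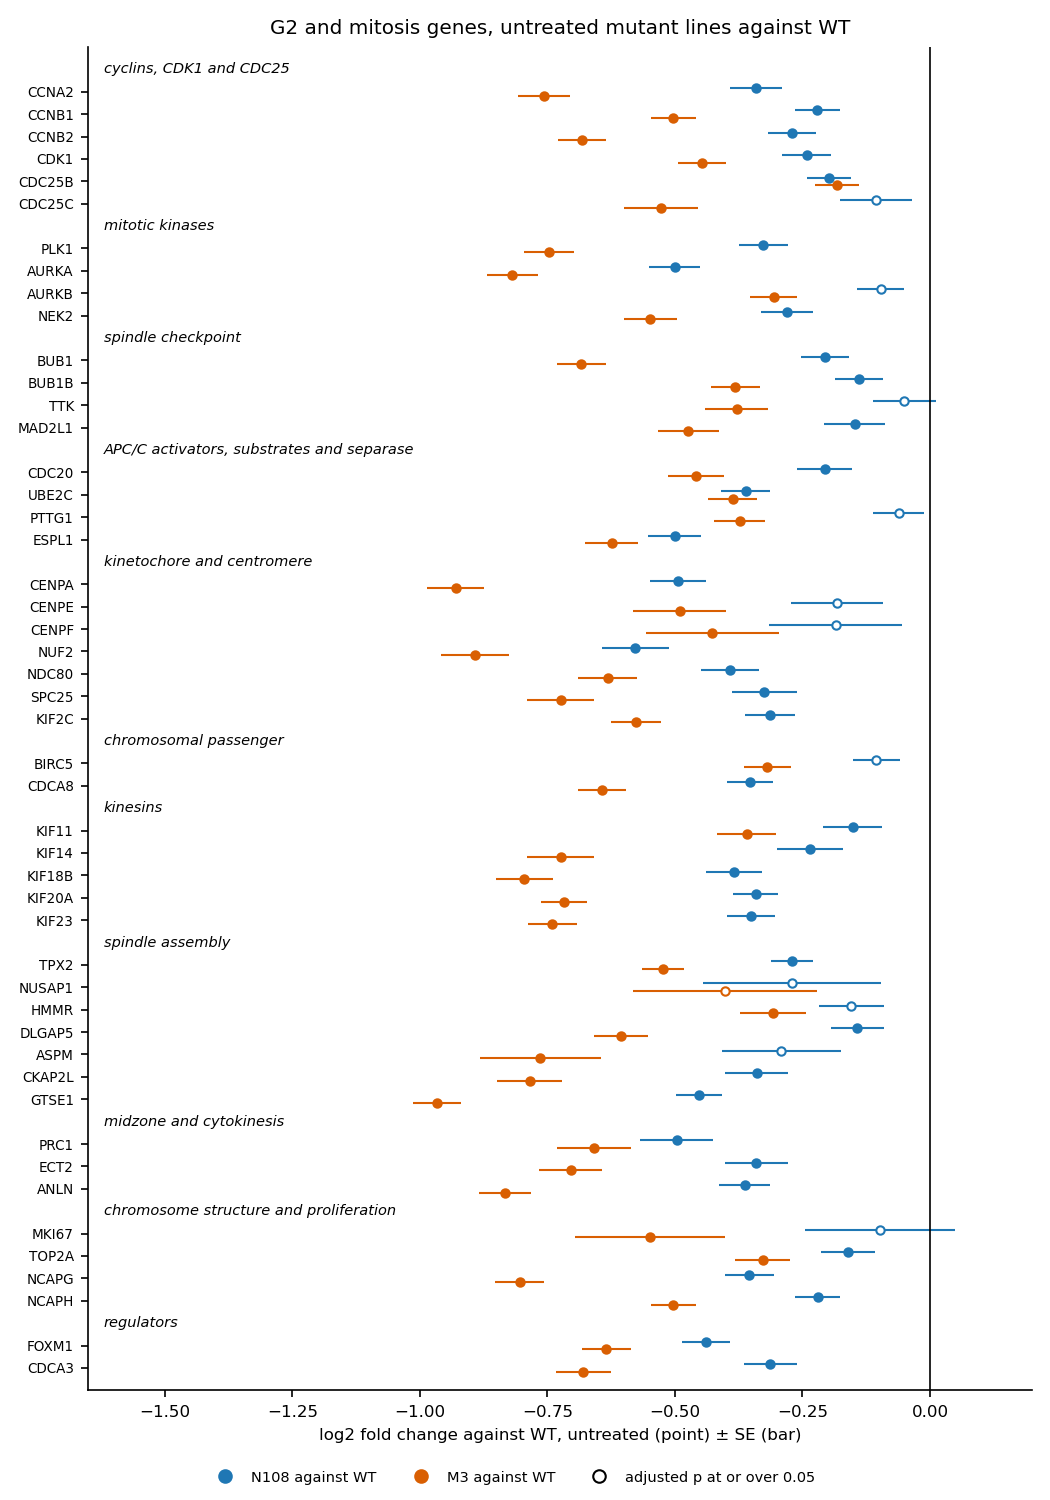
Log2 fold change of each of the 48 genes in untreated N108 (blue) and M3 (orange) against WT, grouped by role; points are edgeR estimates, bars ± SE, and open points have an adjusted p at or over 0.05. The 48 estimates of each line are below 0, and 37 N108 points and 47 M3 points are filled.

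The cyclins, CDK1 and the CDC25 phosphatases that activate it head the list, and all 6 were called lower in M3 and 5 in N108. CCNB1 (chr5:69167010-69178245, + strand), cyclin B1, stood at 258, 267 and 262 CPM in the WT libraries, 232, 222 and 221 in those of N108 and 179, 181 and 196 in those of M3. The groups did not overlap, and its mean in N108 was 85.8% and in M3 70.6% of the WT mean. Its log2 fold change was -0.22 (SE 0.044, edgeR adjusted p = 0.00018) in N108 and -0.50 (SE 0.044, edgeR adjusted p = 2.0e-10) in M3. CDK1 (chr10:60778331-60794852, + strand), the kinase that cyclin B1 activates, read 151, 148 and 138 CPM in the WT libraries, 122, 128 and 120.4 in those of N108 and 108, 110.2 and 103 in those of M3. CDK1 was lower in N108, at -0.24 (SE 0.048, edgeR adjusted p = 0.00016), and in M3, at -0.45 (SE 0.048, edgeR adjusted p = 8.5e-09), again with the 3 groups apart. CCNA2 (chr4:121816444-121823933, - strand), cyclin A2, which acts from S phase into early mitosis, had 127, 125 and 119 CPM in the WT libraries, 101, 101 and 91.2 in those of N108 and 75.6, 74.6 and 69.1 in those of M3. It showed the largest drop among the 6 in either line, -0.34 (SE 0.051, edgeR adjusted p = 3.6e-06) in N108 and -0.76 (SE 0.051, edgeR adjusted p = 9.9e-13) in M3. EXOSC9, on the other strand and at 71.6 CPM over the 18 libraries, shares 9.08% of the exon bases of CCNA2. The count of CCNA2 is uncertain in that part if strand was not used. CCNB2, cyclin B2, was also called lower in both.

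CDC25B (chr20:3786772-3806121, + strand), which starts CDK1 activation at the centrosome, had 213, 215 and 226 CPM in the WT libraries, 191, 186 and 194 in those of N108 and 188, 186 and 202 in those of M3. Both mutant groups lay below WT and overlapped each other, with -0.20 (SE 0.043, edgeR adjusted p = 0.00051) in N108 and -0.18 (SE 0.043, edgeR adjusted p = 0.00086) in M3. CDC25B was the only one of the 48 whose untreated mean was not lower in M3 than in N108. CDC25C (chr5:138285265-138338355, - strand), which completes CDK1 activation at the entry into mitosis, had 19.1, 20.7 and 20.4 CPM in the WT libraries, 18, 18.4 and 19.5 in those of N108 and 13.1, 13.9 and 14.7 in those of M3. Its N108 libraries overlapped WT and the test was not passed, at -0.11 (SE 0.071, edgeR adjusted p = 0.24), and in M3 it was lower, at -0.53 (SE 0.073, edgeR adjusted p = 6.8e-07). FAM53C, on the other strand and at 79.9 CPM over the 18 libraries, shares 8.78% of the exon bases of CDC25C. The count of CDC25C is uncertain in that part if strand was not used.

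**Figure D2:**
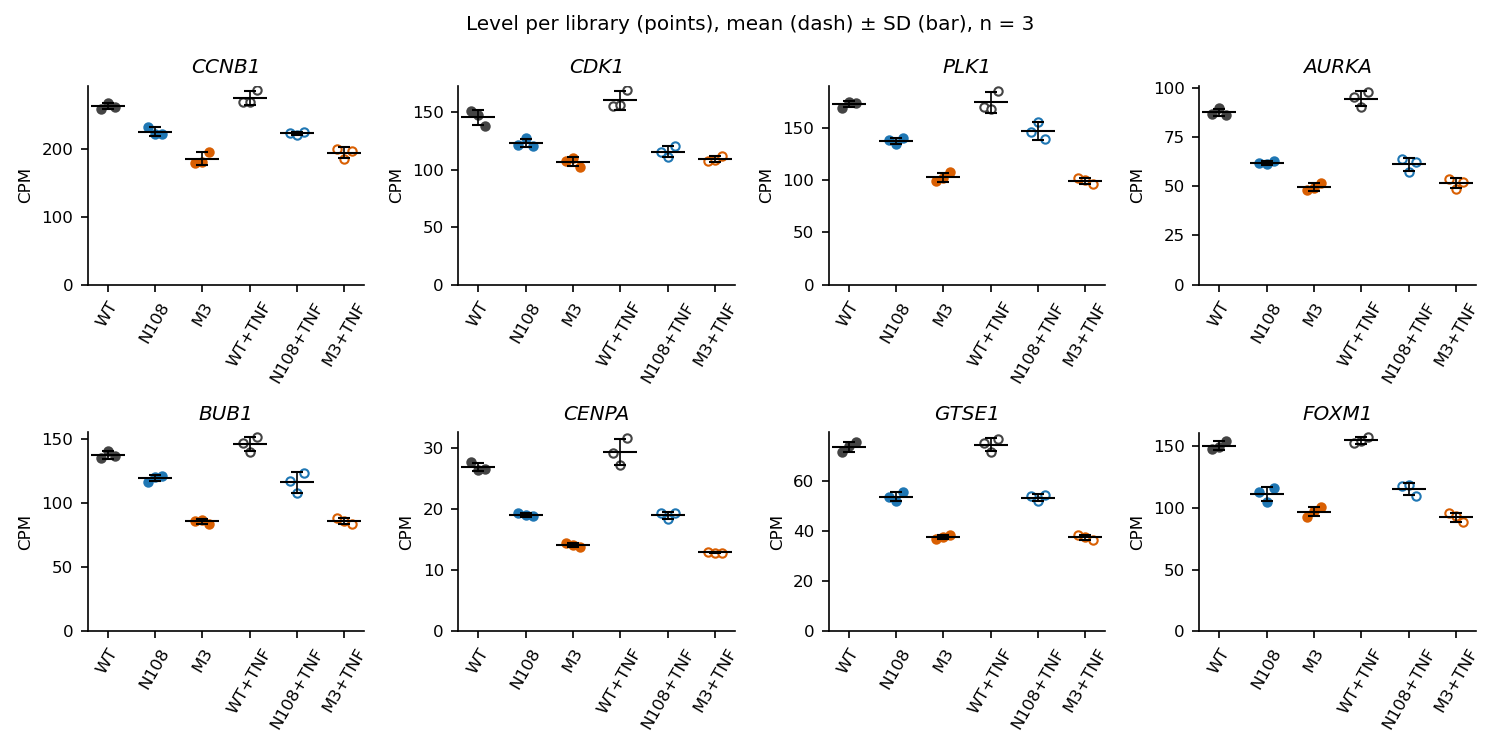
CPM of 8 of the genes in each of the 18 libraries (points), with the group mean (dash) and SD (bar, n = 3), filled for untreated and open for TNF; the vertical axes start at 0. In each panel the 3 untreated groups stand apart in the order WT, N108, M3.

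Of the genes grouped here as mitotic kinases, all 4 were called lower in M3 and 3 in N108. The kinase genes CDK1, BUB1 and TTK were counted in other groups. AURKA (chr20:56369389-56392337, - strand), Aurora A, which matures centrosomes and builds the spindle, had 86.6, 89.7 and 86.3 CPM in the WT libraries, 61.7, 61.1 and 62.8 in those of N108 and 48, 49.2 and 51.7 in those of M3. No library of one genotype reached those of the next. Its N108 difference had the smallest p of the 48 genes in that comparison, -0.50 (SE 0.050, edgeR adjusted p = 3.6e-09), and its M3 difference was -0.82 (SE 0.050, edgeR adjusted p = 1.0e-13). PLK1 (chr16:23677656-23690367, + strand), the Polo kinase that acts from mitotic entry to cytokinesis, stood at 169, 175 and 174 CPM in the WT libraries, 138, 134 and 139.9 in those of N108 and 99.1, 102 and 107 in those of M3. Its mean in M3 was 59.6% of WT, a log2 fold change of -0.75 (SE 0.049, edgeR adjusted p = 4.0e-13), with -0.33 (SE 0.048, edgeR adjusted p = 3.1e-06) in N108. About 12.5% of its exon bases are shared with other genes in the annotation, AC008870.3 and ERN2, which averaged 0.023 and 0.55 CPM over the 18 libraries. AURKB (chr17:8204733-8210600, - strand), Aurora B, the kinase of the chromosomal passenger complex that corrects faulty attachments, moved less. Its libraries had 63.2, 67.7 and 66.7 CPM in the WT libraries, 61.3, 61.8 and 61.7 in those of N108 and 52.6, 52 and 55.2 in those of M3, apart by small steps, and N108 missed the threshold at -0.10 (SE 0.046, edgeR adjusted p = 0.091), while M3 was lower, at -0.31 (SE 0.046, edgeR adjusted p = 2.6e-06). NEK2, a kinase that separates centrosomes, was called lower in both lines.

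The spindle checkpoint genes hold back anaphase while kinetochores are unattached, and all 4 were called lower in M3 and 3 in N108, with the smallest N108 median of the roles, -0.14. BUB1 (chr2:110637698-110678114, - strand), a kinase that recruits the checkpoint to the kinetochore, stood at 135, 141 and 137 CPM in the WT libraries, 117, 120.2 and 121 in those of N108 and 86.4, 87 and 83.8 in those of M3. The 3 groups were apart, with -0.21 (SE 0.047, edgeR adjusted p = 0.00087) in N108 and -0.68 (SE 0.048, edgeR adjusted p = 1.9e-12) in M3. TTK (chr6:80003887-80042527, + strand), the checkpoint's upstream kinase MPS1, had 78.6, 80.7 and 71.1 CPM in the WT libraries, 73.7, 77.5 and 71.3 in those of N108 and 62.7, 59.3 and 55.3 in those of M3. Its N108 and WT libraries overlapped, at -0.05 (SE 0.061, edgeR adjusted p = 0.55), and M3 was lower than both, at -0.38 (SE 0.062, edgeR adjusted p = 8.7e-06) against WT. MAD2L1 (chr4:120055608-120067074, - strand), the MAD2 protein that blocks CDC20, read 126, 120.0 and 109.9 CPM in the WT libraries, 105, 111 and 105 in those of N108 and 90.2, 89.9 and 76 in those of M3. Its N108 call was near the threshold, -0.15 (SE 0.060, edgeR adjusted p = 0.047), and ended without N108 replicate 1 or 3 or WT replicate 1 or 2 (edgeR adjusted p 0.12 to 0.23), while M3 was lower, at -0.47 (SE 0.060, edgeR adjusted p = 1.7e-07). The N108 call of MAD2L1 was also lost by DESeq2 (adjusted p = 0.0503), with a stricter low-count filter (edgeR adjusted p = 0.0535) and with the replicate number as a block (edgeR adjusted p = 0.061). BUB1B, the checkpoint protein BUBR1, was called lower in both, and its N108 call also ended without N108 replicate 1 or WT replicate 2.

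Genes around the APC/C, which ends mitosis by degrading cyclin B and securin, followed, with all 4 called lower in M3 and 3 in N108. CDC20 (chr1:43358955-43363203, + strand), its mitotic activator and the target of the checkpoint, had 251, 264 and 265 CPM in the WT libraries, 233, 217 and 225 in those of N108 and 178, 184 and 204 in those of M3. Its difference was -0.21 (SE 0.054, edgeR adjusted p = 0.0029) in N108 and -0.46 (SE 0.055, edgeR adjusted p = 5.5e-08) in M3, and the groups did not overlap. UBE2C (chr20:45812576-45816957, + strand), the ubiquitin-conjugating enzyme that works with the APC/C, stood at 114, 115 and 116 CPM in the WT libraries, 90.1, 88.5 and 89.4 in those of N108 and 85.6, 82.2 and 95.5 in those of M3. The mutant lines overlapped each other below WT, with -0.36 (SE 0.048, edgeR adjusted p = 6.5e-07) in N108 and -0.39 (SE 0.048, edgeR adjusted p = 1.3e-07) in M3. ESPL1 (chr12:53268299-53293643, + strand), separase, which cuts cohesin at anaphase, had 91.8, 93.7 and 96.7 CPM in the WT libraries, 66.8, 63.1 and 69.5 in those of N108 and 58.1, 63.3 and 61.5 in those of M3. It was among the 4 genes with the smallest p in N108, -0.50 (SE 0.052, edgeR adjusted p = 8.1e-09), and M3, which overlapped N108, was lower than WT, at -0.62 (SE 0.052, edgeR adjusted p = 6.5e-11). PTTG1, securin, the inhibitor of separase, passed in M3 and not in N108. PTTG1 has near-identical retrogene copies, so its counts are uncertain.

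Kinetochore and centromere genes ranged from -0.58 to -0.18 in N108 (5 of 7 called) and from -0.93 to -0.43 in M3 (7 of 7 called). CENPA (chr2:26764289-26801067, + strand), the histone H3 variant that marks the centromere, stood at 27.6, 26.3 and 26.5 CPM in the WT libraries, 19.4, 19 and 18.8 in those of N108 and 14.5, 14.1 and 13.7 in those of M3. The M3 mean was 52.5% and the N108 mean 71% of the WT mean. These are log2 fold changes of -0.93 (SE 0.056, edgeR adjusted p = 7.5e-14) and -0.49 (SE 0.054, edgeR adjusted p = 2.6e-08). SLC35F6, on the same strand and at 62.3 CPM over the 18 libraries, shares 6.96% of the exon bases of CENPA, so the count of CENPA is uncertain in that part. NUF2 (chr1:163266576-163355764, + strand), which with NDC80 forms the arm of the NDC80 complex that grips microtubules, had 49.7, 52.7 and 49.2 CPM in the WT libraries, 31.9, 34.9 and 34.7 in those of N108 and 26.7, 27.9 and 27 in those of M3. In N108 it had the lowest fold change of the 48, -0.58 (SE 0.065, edgeR adjusted p = 4.1e-08), and in M3 -0.89 (SE 0.066, edgeR adjusted p = 6.5e-12). Its partners NDC80 and SPC25 and the depolymerising kinesin gene KIF2C were also called lower in both lines.

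CENPE (chr4:103105806-103198409, - strand), the kinesin that carries chromosomes to the spindle equator, varied more within groups, at 54.4, 59.5 and 54.6 CPM in the WT libraries, 45.1, 50.7 and 52.7 in those of N108 and 40.8, 42.3 and 36.8 in those of M3. Its libraries did not overlap between groups, yet N108 did not pass, at -0.18 (SE 0.090, edgeR adjusted p = 0.12), and passed with each library's trend over GC content removed, at -0.23 (edgeR adjusted p = 0.033). M3 was lower, at -0.49 (SE 0.091, edgeR adjusted p = 0.00017). CENPF, a large kinetochore protein, passed in M3 at -0.43 (SE 0.13, edgeR adjusted p = 0.014) and not in N108 (-0.18, edgeR adjusted p = 0.29). The M3 call of CENPF ended when WT replicate 3 was left out. In the chromosomal passenger complex, BIRC5 (chr17:78214186-78225636, + strand), survivin, had 207, 214 and 222 CPM in the WT libraries, 198, 195 and 205 in those of N108 and 168, 168 and 179 in those of M3. Its groups were apart by small steps, with -0.11 (SE 0.046, edgeR adjusted p = 0.067) in N108, over the threshold, and -0.32 (SE 0.046, edgeR adjusted p = 1.4e-06) in M3. CDCA8, borealin, another subunit of the complex, was called lower in both lines.

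The kinesins CENPE and KIF2C were counted above with the kinetochore genes. All 5 genes grouped here as kinesins were called lower in both mutant lines, with medians of -0.34 in N108 and -0.72 in M3. KIF20A (chr5:138178719-138187715, + strand), the motor MKLP2 of the central spindle, stood at 133, 143 and 134 CPM in the WT libraries, 108, 106 and 109 in those of N108 and 80.2, 84.4 and 84.5 in those of M3. The groups stood apart, at -0.34 (SE 0.044, edgeR adjusted p = 4.4e-07) in N108 and -0.72 (SE 0.045, edgeR adjusted p = 1.7e-13) in M3. KIF18B (chr17:44924709-44947711, - strand), which shortens astral microtubules, had 80.5, 83 and 81.6 CPM in the WT libraries, 65.9, 59.7 and 62.2 in those of N108 and 46.2, 45.9 and 49.1 in those of M3. Its M3 mean was 57.6% of WT, with -0.38 (SE 0.054, edgeR adjusted p = 1.6e-06) in N108 and -0.80 (SE 0.055, edgeR adjusted p = 1.5e-12) in M3. KIF14 (chr1:200551497-200620734, - strand), a cytokinesis motor, read 56.2, 59.5 and 55.6 CPM in the WT libraries, 47.7, 49.4 and 48.4 in those of N108 and 35.2, 36.2 and 32.2 in those of M3. It was lower, at -0.24 (SE 0.064, edgeR adjusted p = 0.0039) in N108 and -0.72 (SE 0.065, edgeR adjusted p = 3.2e-10) in M3. KIF11 (chr10:92593286-92655395, + strand), the Eg5 motor that pushes the spindle poles apart, had 93.8, 98.8 and 97.1 CPM in the WT libraries, 83.4, 90.0 and 87.3 in those of N108 and 75.9, 78.2 and 71.7 in those of M3 and the smallest change of the kinesins. Its N108 difference of -0.15 (SE 0.058, edgeR adjusted p = 0.035) was lost without N108 replicate 1 or 3 or WT replicate 2 or 3 (edgeR adjusted p 0.066 to 0.14), and M3 was lower, at -0.36 (SE 0.058, edgeR adjusted p = 7.1e-06). KIF23, MKLP1 of centralspindlin, was called lower in both.

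Among 7 genes of spindle assembly, 4 were called lower in N108 and 6 in M3. GTSE1 (chr22:46296741-46330810, + strand), a microtubule-binding protein of G2 and mitosis that also restrains p53, stood at 71.6, 74.3 and 75.6 CPM in the WT libraries, 53.8, 52.1 and 55.9 in those of N108 and 37.1, 37.7 and 38.4 in those of M3. Its M3 libraries were 51.2% of WT on average, the lowest fold change of the 48 in M3, -0.97 (SE 0.046, edgeR adjusted p = 4.7e-16). In N108 it was lower, at -0.45 (SE 0.045, edgeR adjusted p = 4.8e-09), with no overlap among the 3 groups. TPX2 (chr20:31739271-31801805, + strand), which activates Aurora A on the spindle, had 297, 309.5 and 307 CPM in the WT libraries, 247, 249 and 261 in those of N108 and 206, 210.3 and 219 in those of M3. It was lower, at -0.27 (SE 0.041, edgeR adjusted p = 4.5e-06) and -0.52 (SE 0.041, edgeR adjusted p = 2.0e-11), in libraries that differed little within a group. DLGAP5 and CKAP2L, spindle proteins, were called lower in both lines, and HMMR and ASPM in M3, with edgeR adjusted p = 0.054 and 0.059 in N108. The N108 call of DLGAP5 ended without N108 replicate 1 or WT replicate 2 or 3. NUSAP1, a microtubule-bundling protein, passed in neither line (-0.27 and -0.40, edgeR adjusted p = 0.23 and 0.063). Its level was 1.39 CPM on average in WT, and 62.2% of its exon bases are shared with another gene model on the same strand, so its count is uncertain.

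In the midzone and cytokinesis group, all 3 genes were called lower in both lines. ANLN (chr7:36389806-36453791, + strand), anillin, the scaffold of the contractile ring, had 201, 206 and 195 CPM in the WT libraries, 152, 160.3 and 156 in those of N108 and 114, 115 and 109 in those of M3. The 3 groups were widely apart, at -0.36 (SE 0.050, edgeR adjusted p = 1.2e-06) in N108 and -0.83 (SE 0.051, edgeR adjusted p = 1.0e-13) in M3. ECT2 (chr3:172750682-172821474, + strand), the exchange factor that activates RhoA at the cell equator, stood at 164, 155 and 149.5 CPM in the WT libraries, 122, 129 and 119 in those of N108 and 102, 100.01 and 85.1 in those of M3. It was lower, at -0.34 (SE 0.062, edgeR adjusted p = 6.2e-05) and -0.70 (SE 0.062, edgeR adjusted p = 3.8e-10). PRC1 (chr15:90966038-90995629, - strand), which bundles antiparallel microtubules of the midzone, had 21.5, 22.2 and 22.1 CPM in the WT libraries, 14.6, 14.7 and 17.4 in those of N108 and 13.8, 13.4 and 14.4 in those of M3. Its differences were -0.50 (SE 0.072, edgeR adjusted p = 2.3e-06) and -0.66 (SE 0.073, edgeR adjusted p = 1.5e-08), with 58.4% of its exon bases shared with other gene models, so its level is uncertain in the same way.

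Of the genes for chromosome structure, all 4 were called lower in M3 and 3 in N108. NCAPG (chr4:17810902-17844862, + strand), a condensin subunit, stood at 173, 184 and 177 CPM in the WT libraries, 137, 141 and 139.8 in those of N108 and 102, 103 and 101 in those of M3. It was lower, at -0.35 (SE 0.048, edgeR adjusted p = 7.7e-07) in N108 and -0.80 (SE 0.048, edgeR adjusted p = 6.7e-14) in M3. LCORL, on the other strand, covers 33.1% of the exon bases of NCAPG, so the count of NCAPG is uncertain if strand was not used. TOP2A (chr17:40388516-40417950, - strand), the topoisomerase that untangles sister chromatids, had 249, 258 and 252 CPM in the WT libraries, 219, 234 and 226 in those of N108 and 202, 210.2 and 192 in those of M3. Its changes were smaller, -0.16 (SE 0.054, edgeR adjusted p = 0.017) and -0.33 (SE 0.054, edgeR adjusted p = 9.0e-06), and the N108 call ended without N108 replicate 1 or WT replicate 2 (edgeR adjusted p 0.065 to 0.079). MKI67 (chr10:128096659-128126385, - strand), the Ki-67 protein that coats mitotic chromosomes and marks proliferating cells in pathology, read 489, 532 and 566 CPM in the WT libraries, 484, 494 and 503 in those of N108 and 341, 385 and 357 in those of M3. N108 overlapped WT and did not pass, at -0.10 (SE 0.15, edgeR adjusted p = 0.63), and M3 lay below both, at -0.55 (SE 0.15, edgeR adjusted p = 0.0066) against WT. NCAPH, another condensin subunit, was called lower in both lines.

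FOXM1 (chr12:2857681-2877155, - strand), a transcription factor that works with MuvB on promoters of this kind, stood at 148, 149.6 and 154 CPM in the WT libraries, 113, 105 and 116 in those of N108 and 92.8, 97.7 and 100.4 in those of M3. It was lower, at -0.44 (SE 0.048, edgeR adjusted p = 1.8e-08) in N108 and -0.63 (SE 0.048, edgeR adjusted p = 8.3e-12) in M3, with the 3 groups apart. Its exons share 15.9% of their bases with ITFG2 on the other strand. CDCA3, a regulator of mitotic entry, was called lower in both as well. Per kilobase of exon, the highest of the 48 in untreated WT was CDC20, with 127 CPM per kb, followed by CCNB1 (103) and UBE2C (89.2), and the lowest besides NUSAP1 and PRC1 was CENPE (5.95). In M3 the same 3 genes had 92.8, 72.4 and 68.3 CPM per kb.

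Set against each other without TNF, N108 was higher than M3 for 41 of the 48 genes and lower for 0, where 31.5% of all tested genes were called and 16.4% called higher. With no adjustment (p under 0.05), 44 were higher and 0 lower, and DESeq2 called 41 higher and 0 lower. The median of the 48 was 0.31 on the log2 scale, and in 44 genes every N108 library was above every M3 library, as in 22.5% of all tested genes. GTSE1 (0.51, SE 0.046, edgeR adjusted p = 1.4e-09), BUB1 (0.48, SE 0.048, edgeR adjusted p = 9.4e-09), NCAPG (0.45, SE 0.048, edgeR adjusted p = 3.1e-08) and ANLN (0.47, SE 0.051, edgeR adjusted p = 3.9e-08) had the smallest p. UBE2C (0.03, SE 0.048, edgeR adjusted p = 0.74), ESPL1 (0.12, SE 0.052, edgeR adjusted p = 0.073) and CDC25B (-0.02, SE 0.043, edgeR adjusted p = 0.83) did not pass, nor did CENPF, NUSAP1, HMMR or PRC1. The call of MKI67, 0.45 (SE 0.15, edgeR adjusted p = 0.033), was lost without any one of the 3 N108 libraries or without M3 replicate 1 or 3 (edgeR adjusted p 0.065 to 0.10), and that of CENPE, 0.31 (SE 0.091, edgeR adjusted p = 0.015), without N108 replicate 2 or 3 or M3 replicate 3 (edgeR adjusted p 0.051 to 0.076). TOP2A, at 0.17 (SE 0.054, edgeR adjusted p = 0.018), was lost without N108 replicate 2 or M3 replicate 3 (edgeR adjusted p 0.080 to 0.082). By order of means, 47 of 48 genes fell from WT to N108 to M3, as did 25.1% of all tested genes. In 39 of the 48 the libraries of the 3 groups were fully apart in that order, as in 8.17% of all tested genes.

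**Figure D3:**
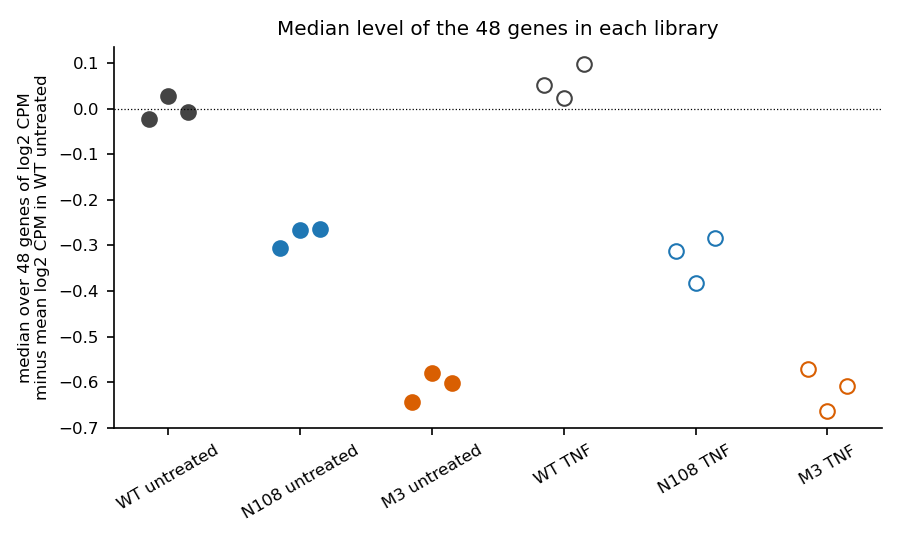
For each library, the median over the 48 genes of log2 CPM minus the mean log2 CPM of that gene in untreated WT; filled points are untreated libraries and open points TNF libraries. The untreated medians lie between -0.023 and 0.027 in WT, -0.31 and -0.26 in N108 and -0.64 and -0.58 in M3, and the TNF libraries keep the order WT, N108, M3 with no overlap between lines.

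The medians over the 48 genes per library show how close the replicates were. With TNF they lay between 0.024 and 0.097 in WT, -0.38 and -0.28 in N108 and -0.66 and -0.57 in M3. Within a group the 48 genes also tended to be high or low together. WT replicate 3 with TNF had the highest value of its group for 37 genes, untreated WT replicate 2 for 32 and M3 replicate 1 with TNF for 30. Replicate 2 of N108 with TNF had the lowest value of its group for 31 genes. The 48 genes are therefore not separate replicates of a comparison.

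With TNF, most of the 48 genes were again lower in the mutant lines. Their summed level was 6061 ± 85.3 CPM in WT, against 4940 ± 153 for N108 and 4103 ± 124 for M3. In N108 against WT, 41 of the 48 were called lower and 0 higher, where 46.7% of all tested genes were called and 23.6% called lower, with a median of -0.35. In M3 against WT, 45 were called lower and 0 higher, where 54.7% were called and 27.8% called lower, with a median of -0.66. N108 was higher than M3 for 35 and lower for 0, where 37.3% were called and 20.0% called higher, with a median of 0.28. At an unadjusted p under 0.05 the counts were 41 and 46 lower against WT and 39 higher for N108 against M3, with 0 the other way, and DESeq2 called 41, 46 and 35. The mutant libraries were all below all WT libraries for 39 genes in N108 and 45 in M3, beside 25.5% and 31.4% of all tested genes.

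AURKA with TNF had 95.4, 90.4 and 97.9 CPM in the WT libraries, 63.8, 57.4 and 62.1 in those of N108 and 53.7, 48.6 and 52.1 in those of M3. The groups did not overlap, at -0.63 (SE 0.050, edgeR adjusted p = 4.2e-11) in N108 and -0.88 (SE 0.050, edgeR adjusted p = 2.4e-14) in M3. NUF2, with 51.3, 51 and 54 CPM in the WT libraries, 31.8, 26.2 and 34.2 in those of N108 and 27.6, 26.2 and 28.5 in those of M3, was the other gene of smallest p in N108, at -0.76 (SE 0.066, edgeR adjusted p = 2.9e-10). CENPA stood at 29.1, 27.2 and 31.5 CPM in the WT libraries, 19.3, 18.3 and 19.2 in those of N108 and 13, 12.7 and 12.8 in those of M3. M3 was lower than WT, at -1.19 (SE 0.057, edgeR adjusted p = 4.7e-16), its mean at 43.9% of WT, and N108 at -0.63 (SE 0.055, edgeR adjusted p = 3.2e-10). GTSE1, at 75.5, 71.7 and 77.1 CPM in the WT libraries, 54, 52 and 54.5 in those of N108 and 38.5, 37.7 and 36.5 in those of M3, again kept the 3 groups apart, with -0.99 (SE 0.047, edgeR adjusted p = 3.0e-16) in M3 and 0.51 (SE 0.047, edgeR adjusted p = 1.7e-09) for N108 against M3. PLK1, with 169.5, 167 and 185 CPM in the WT libraries, 146, 156 and 139 in those of N108 and 102, 99.96 and 96 in those of M3, had the smallest p of N108 against M3, 0.57 (SE 0.049, edgeR adjusted p = 5.2e-10). CCNB1 had 268, 268 and 287 CPM in the WT libraries, 224, 219.5 and 224 in those of N108 and 199.9, 185 and 197 in those of M3, with M3 lower than WT, at -0.50 (SE 0.044, edgeR adjusted p = 2.1e-10) and N108 at -0.30 (SE 0.044, edgeR adjusted p = 2.5e-06).

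CDC20 and CDC25B, both called lower in untreated N108, did not pass with TNF in the fit reported here, and passed once each library's trend over the GC content of transcripts was removed. CDC20 had 256, 243 and 266 CPM in the WT libraries, 238, 266 and 228 in those of N108 and 183, 176 and 175 in those of M3. N108 and WT overlapped, at -0.06 (SE 0.054, edgeR adjusted p = 0.37), or -0.16 (edgeR adjusted p = 0.0014) with the trend removed, and M3 was lower than both. CDC25B, with 211, 207 and 211 CPM in the WT libraries, 206, 215 and 196 in those of N108 and 185, 183 and 185 in those of M3, gave -0.03 (SE 0.043, edgeR adjusted p = 0.62) in N108, or -0.12 (edgeR adjusted p = 0.0024) with the trend removed, and -0.19 (SE 0.044, edgeR adjusted p = 0.00071) in M3. AURKB, at 63.8, 62.2 and 64.5 CPM in the WT libraries, 62.1, 67.1 and 61 in those of N108 and 50.5, 50.1 and 51.3 in those of M3, gave -0.0028 (SE 0.046, edgeR adjusted p = 0.97) in N108, or -0.09 (edgeR adjusted p = 0.049) with the trend removed, and M3 was below both other lines. PTTG1, CENPF, NUSAP1 and MKI67 were the other genes not called in N108. With the trend removed PTTG1 was called too, and CENPE, called in the reported fit, was not, at -0.16 (edgeR adjusted p = 0.12). BIRC5, at -0.12 (SE 0.046, edgeR adjusted p = 0.034), was called, and the call was lost without N108 replicate 2 or 3 or WT replicate 3 (edgeR adjusted p 0.060 to 0.26), with a stricter filter, with no filter or with only the groups compared. ASPM, also called, was lost without N108 replicate 2 or WT replicate 1 or 2.

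MKI67 was measured with TNF at 550.3, 522 and 339 CPM in the WT libraries, 469.7, 471 and 532 in those of N108 and 420.5, 333 and 350.2 in those of M3, and WT replicate 3 lay far below the other WT libraries. M3 against WT was -0.35 (SE 0.15, edgeR adjusted p = 0.058), and it passed by DESeq2 (adjusted p = 0.026), without WT replicate 3, at -0.54 (edgeR adjusted p = 2.1e-05), and with the GC trend removed, at -0.41 (edgeR adjusted p = 0.023). CENPF behaved alike in the same library, with 274, 255 and 176 CPM in the WT libraries. ASPM (88.4, 88.6 and 71.2) and CENPE (60.6, 59.2 and 50.5) were lowest there too. MKI67, CENPF, ASPM and CENPE have the longest exon lengths of the 48, at 12807, 11690, 10887 and 9444 bases. That library had the highest value of its group for 37 genes, and the part of transcript length was not tested. N108 against M3 in MKI67, 0.42 (SE 0.15, edgeR adjusted p = 0.042), was lost without any one N108 library or M3 replicate 2 or 3 (edgeR adjusted p 0.062 to 0.14), with no low-count filter or with the replicate block. TTK, at 0.18 (SE 0.062, edgeR adjusted p = 0.022), was lost without N108 replicate 3 or M3 replicate 1 or 3 (edgeR adjusted p 0.068 to 0.19) or with only the groups compared. NDC80, CKAP2L and BUB1B also lost their N108 against M3 calls when single libraries were left out, each of them without N108 replicate 3. The 13 genes not called between N108 and M3 with TNF included CDK1 (0.08), ECT2 (0.15), KIF11 (0.01) and TOP2A (-0.02), at edgeR adjusted p = 0.20, 0.062, 0.95 and 0.79. With the GC trend removed, 3 of these 4 were called higher in N108, CDK1 at 0.23 (edgeR adjusted p = 9.2e-05), ECT2 at 0.28 (edgeR adjusted p = 7.0e-07) and KIF11 at 0.13 (edgeR adjusted p = 0.021), and TOP2A was 0.09 (edgeR adjusted p = 0.072). In that fit 8 genes in all gained a call between N108 and M3, and CDC25B and ESPL1 lost theirs.

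The response to TNF within each line was small for these genes. In WT, 0 of the 48 were called, where 5.18% of all tested genes were called. With no adjustment (p under 0.05), 4 were higher and 2 lower, and DESeq2 called 0. CDK1 and KIF18B had the smallest p, at 0.14 (SE 0.048, edgeR adjusted p = 0.10) and -0.15 (SE 0.054, edgeR adjusted p = 0.12). CDK1 went from 151, 148 and 138 CPM untreated to 155, 156 and 169.5 with TNF, without overlap, and KIF18B from 80.5, 83 and 81.6 to 75.3, 72 and 73.6. All 3 TNF libraries were above all untreated ones for 13 genes and below them for 3, beside 16.1% and 11.8% of all tested genes.

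In N108, 0 of the 48 were called by edgeR and 0 by DESeq2, where 1.20% of all tested genes were called, and with no adjustment (p under 0.05) 2 were higher and 7 lower. Without N108 replicate 3 with TNF, 7 were called, 1 higher and 6 lower. The share of all tested genes called in that fit is not given here. ECT2 and MAD2L1 had the smallest p, at -0.21 (SE 0.062, edgeR adjusted p = 0.13) and -0.20 (SE 0.060, edgeR adjusted p = 0.13). ECT2 went from 122, 129 and 119 CPM untreated to 109, 96.8 and 115 with TNF, and MAD2L1 from 105, 111 and 105 to 94, 88.7 and 97.6, both without overlap. In M3, 0 were called by edgeR and 0 by DESeq2, where 1.38% of all tested genes were called, and with no adjustment (p under 0.05) 0 were higher and 1 lower. CENPA and KIF14 had the smallest p there, at -0.13 (SE 0.059, edgeR adjusted p = 0.49) and 0.12 (SE 0.066, edgeR adjusted p = 0.63). CENPA moved from 14.5, 14.1 and 13.7 CPM to 13, 12.7 and 12.8.

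The interaction asks whether the TNF response of a mutant line differed from that of WT. For N108, 1 of the 48 was called, as lower, where 2.62% of all tested genes were called and 0.583% called lower. That gene was ECT2, at -0.33 (SE 0.087, edgeR adjusted p = 0.042), from 164, 155 and 149.5 CPM untreated to 166, 168 and 175 with TNF in WT, beside its fall in N108. CDK1 came next, at -0.23 (SE 0.068, edgeR adjusted p = 0.061). With no adjustment (p under 0.05), 2 genes were higher and 13 lower. The share of all tested genes at that cut is not given here, so these counts are not read as particular to the 48. CDC20, CDC25B and AURKB, which were not called between N108 and WT with TNF in the reported fit, had interactions of 0.15, 0.17 and 0.09, at edgeR adjusted p = 0.28, 0.11 and 0.42. Without N108 replicate 3 with TNF the count was 14, and the ECT2 call ended without 8 of the 12 libraries. For that count of 14 the share over all tested genes in the same fit is not given. For M3, 0 were called by edgeR and 0 by DESeq2, where 0.315% of all tested genes were called, and with no adjustment (p under 0.05) 0 were higher and 1 lower. CENPA and TPX2 had the smallest p, at -0.26 (SE 0.080, edgeR adjusted p = 0.20) and -0.10 (SE 0.058, edgeR adjusted p = 0.63).

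These small TNF differences moved with the base composition of the transcripts. The median GC content of the longest transcript was 43.2% over the 48 genes and 49.0% over all tested genes, and 34 of the 48 were below the latter. Across the 48 genes, the log2 fold change with TNF and GC content had a Spearman correlation of 0.87 in N108, -0.50 in WT and -0.70 in M3. The points share their libraries, and the same values over all tested genes were 0.49, -0.30 and -0.27. With each library's trend over GC content removed, ECT2 gave -0.18 (edgeR adjusted p = 0.093) and 0 interactions with N108 were called. In the untreated genotype comparisons the correlations with GC content over the 48 genes were -0.15 for N108 against WT, 0.046 for M3 against WT and -0.18 for N108 against M3, and with the trend removed 40, 48 and 42 genes were called. With TNF they were 0.45, 0.045 and 0.53, and removing the trend gained 4, 1 and 8 calls and ended 1, 0 and 2. Shares of all tested genes called with the trend removed are not given here.

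**Figure D4:**
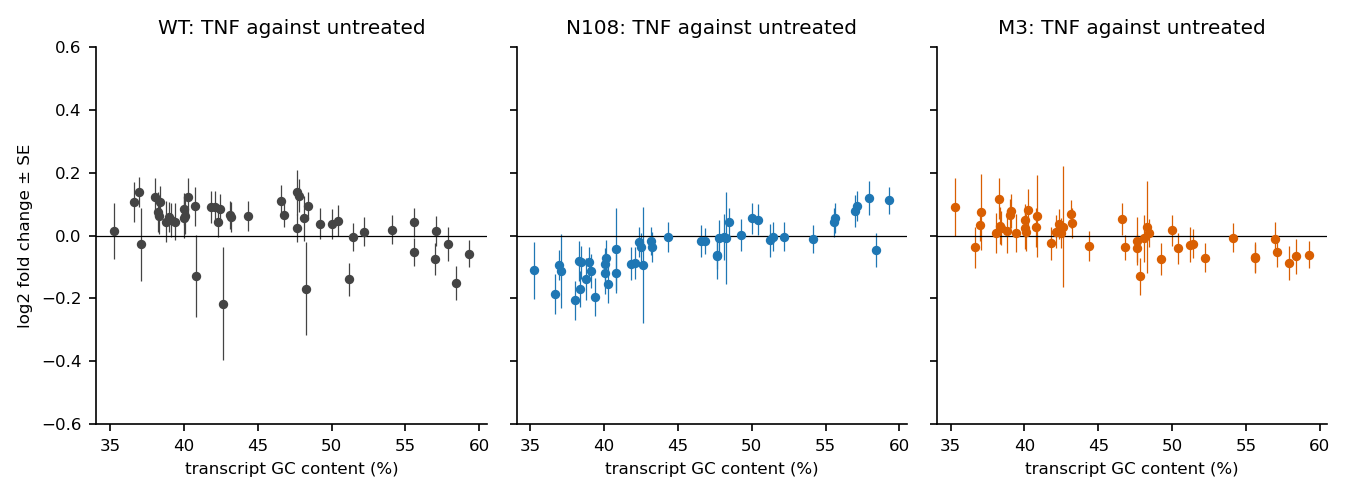
Log2 fold change with TNF against untreated (± SE) of each of the 48 genes, plotted over the GC content of its longest transcript, in WT, N108 and M3. The points rise with GC content in N108 (Spearman 0.87) and fall in WT (-0.50) and M3 (-0.70), and 0 of them were called in any line.

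Further cell cycle genes, in lists that hold none of the 48, were counted in the same fit. Unless TNF is named, the values given for them are from the untreated comparisons. Of 71 other mitotic genes, 49 were called lower and 3 higher in untreated N108 and 59 lower and 2 higher in M3, with medians of -0.24 and -0.50. KIF18A, a kinesin that damps chromosome movement, averaged 202 CPM in the WT libraries, 116 in those of N108 and 83.6 in those of M3, with -0.80 (SE 0.061, edgeR adjusted p = 3.3e-11) and -1.27 (SE 0.062, edgeR adjusted p = 1.7e-15). HJURP, the chaperone that deposits CENPA, was lower, at -0.61 and -0.84, beside the fall of CENPA itself. CDKN3, a phosphatase acting on cyclin-dependent kinases, had -1.13 in M3 and -0.51 in N108, and HMGB2, a chromatin protein, -0.41 in N108. The share called lower in this list, like that of the 48 genes, was above the share among all tested genes (21.6% in N108 and 26.8% in M3). Called higher were 20.9% and 26.1% of all tested genes. Both sets were chosen with earlier results of these data known, so the excess is not independent of those results.

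Of 41 DNA replication genes, 19 were called lower and 6 higher in N108, and 25 lower and 2 higher in M3, with medians of -0.09 and -0.20. RRM2, a ribonucleotide reductase subunit, was lower in both (-0.27 and -0.55), and POLE2, a subunit of DNA polymerase epsilon, higher (0.52 and 0.31). Of 28 genes for APC/C subunits and cohesin, 9 were lower and 3 higher in N108 and 11 lower and 5 higher in M3, with medians of -0.04 and -0.07. CDCA5, sororin, which protects cohesin, was lower, at -0.35 and -0.46. Of all tested genes, 21.6% were called lower and 20.9% higher in N108, and 26.8% lower and 26.1% higher in M3. Whether the shares of these lists differ from those, or from that of the 48 genes, was not tested.

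Regulators of the late cell cycle genes moved in both directions. Of 22 genes for DREAM, MuvB, E2F and NF-Y, 10 were lower and 6 higher in N108, and 9 lower and 7 higher in M3. Among all tested genes, 21.6% were called lower and 20.9% higher in N108, and 26.8% lower and 26.1% higher in M3. Whether the shares of this list differ from those was not tested. MYBL2, the B-MYB factor that joins MuvB, was lower, at -0.18 (SE 0.050, edgeR adjusted p = 0.0054) in N108 and -0.55 (SE 0.050, edgeR adjusted p = 3.7e-10) in M3. LIN54, the MuvB subunit that binds the CHR, was lower (-0.77 and -0.95), and LIN9, another subunit, higher (0.38 and 0.28). With TNF, LIN9 was not called in N108, at 0.13 (edgeR adjusted p = 0.16), and was called higher in M3, at 0.18 (edgeR adjusted p = 0.045). E2F1 was lower in both (-0.43 and -0.56), and RBL2, the p130 pocket protein of DREAM, was lower in N108 (-0.65) and higher in M3 (0.23).

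Among 15 tested genes for G1 cyclins, their kinases and inhibitors, 10 were lower and 2 higher in N108 and 11 lower and 3 higher in M3. The shares over all tested genes were 21.6% lower and 20.9% higher in N108, and 26.8% lower and 26.1% higher in M3. CCND1, cyclin D1, was lower, at -0.32 (SE 0.039, edgeR adjusted p = 2.4e-07) in N108 and -0.52 (SE 0.040, edgeR adjusted p = 8.6e-12) in M3. CCNE1, cyclin E1, passed in M3 (-0.21) and not in N108, at -0.05 (SE 0.053, edgeR adjusted p = 0.53). CCNE2, cyclin E2, was lower than WT in N108, at -0.89 (SE 0.076, edgeR adjusted p = 5.6e-10). In M3 CCNE2 was lower by less, at -0.59 (SE 0.076, edgeR adjusted p = 3.5e-07). N108 against M3 in CCNE2 was -0.30 (SE 0.077, edgeR adjusted p = 0.0036), so N108 was the lower of these lines. CDKN1A, the p21 inhibitor that p53 induces, was lower without TNF, at -0.29 and -0.26 on the log2 scale. With TNF its differences from WT were not called, at -0.016 in N108 and -0.085 in M3 (edgeR adjusted p = 0.84 and 0.20). TNF itself raised CDKN1A in WT, N108 and M3, by 0.20, 0.47 and 0.38 (edgeR adjusted p = 0.036, 1.8e-06 and 7.3e-05). CDKN2D, the p19 inhibitor of CDK4 and CDK6, averaged 15.5 CPM in the untreated WT libraries, 5.08 in those of N108 and 5.04 in those of M3.

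**Figure D5:**
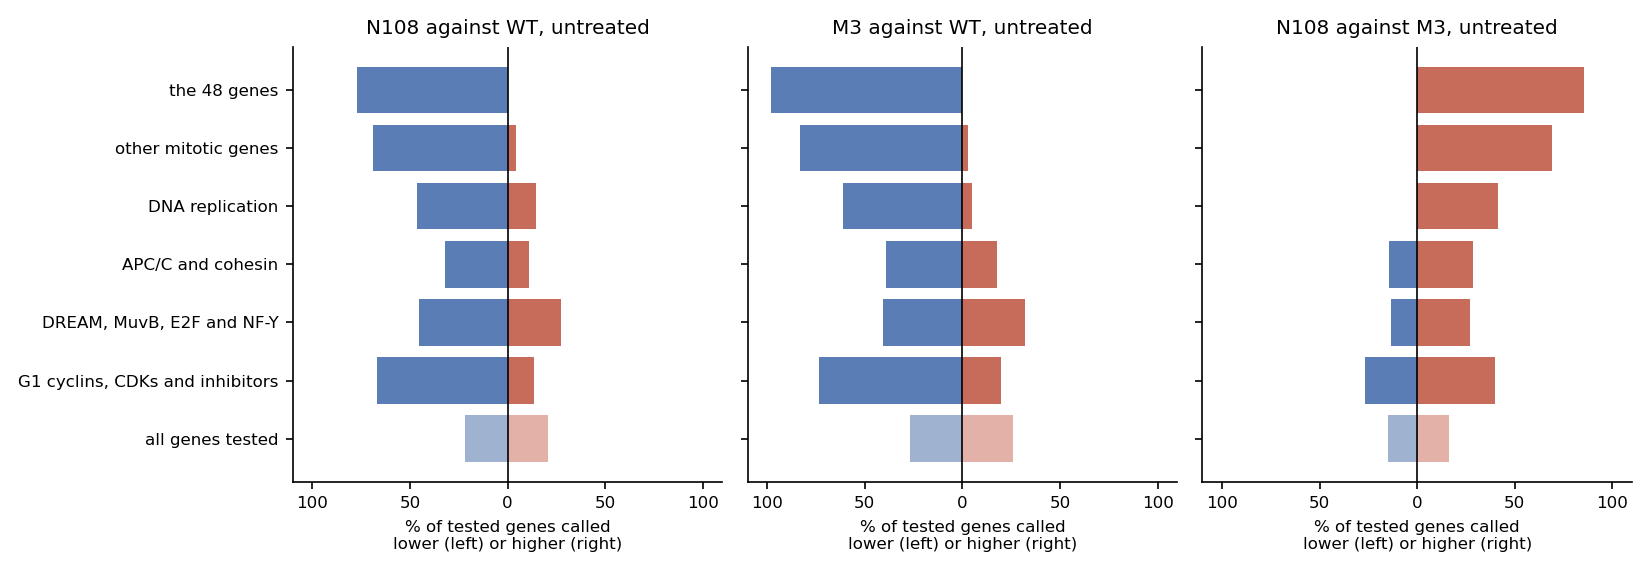
Percent of the tested genes of each list called lower (left of 0) or higher (right of 0) in the untreated comparisons; the bottom bars show all genes tested. Against WT, 37 (N108) and 47 (M3) of the 48 genes and 49 and 59 of the 71 other mitotic genes are called lower, beside 21.6% and 26.8% of all genes tested.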

How the data were processed

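Total RNA of 18 libraries was sequenced in pairs of 50 bp reads, per the labels' protocols. Reads were trimmed with Trim Galore 0.6.6, aligned with STAR 2.7.8 to hg38 and counted with featureCounts (Subread 2.0.1), and DESeq2 1.38.3 is named too, per the submitters' processing notes. Annotation release and strand setting: not given in the sources used here. The deposited values used are the authors' raw counts per Ensembl gene, and their normalized table was not used. Groups came from the labels.

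Counts were tested with edgeR 4.0.16 (R 4.3.3): genes with a minimum count of 10 (filterByExpr), TMM scaling, 1 quasi-likelihood fit of 6 group means with 12 residual degrees of freedom, 11 comparisons, and Benjamini-Hochberg adjustment over all 19038 genes tested, with a threshold of 0.05. Tested genes held at least 99.96% of each library's counts. Symbols, positions, exon lengths and GC content were from GENCODE 29 (GRCh38), and promoters from RefSeq. Alternatives were DESeq2 1.42.0, its size factors, other filters, fewer groups, a replicate block, removal of GC trends, and leaving out each library. The procedure was also run on simulated counts in which few genes differed, up or down, in untreated N108 alone. That setting is unlike the broad differences between these genotypes, so it cannot show how the test behaves there. Members and lists were chosen with earlier results of these data known. All 48 members could be named, with full values for 22 chosen representatives and for the members of smallest p in each comparison (4 in each untreated genotype comparison and 2 in each other one). Of each other list, the 3 genes of smallest p in each untreated mutant comparison and 6 chosen regulators could be named.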

Additional observations from a re-analysis of the deposited data

Results flagged for a closer look

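The difference in TNF response between N108 and WT of ECT2, the RhoA exchange factor of cytokinesis, was flagged because the interaction passed its test. The difference was -0.33 (SE 0.087, edgeR adjusted p = 0.042) on the log2 scale. All 3 N108 libraries with TNF (109, 96.8 and 115 CPM) were below all 3 without (122, 129 and 119), and all 3 WT libraries with TNF (166, 168 and 175) were above those without (164, 155 and 149.5). Neither response passed on its own, at -0.21 (SE 0.062, edgeR adjusted p = 0.13) in N108 and 0.12 (SE 0.062, edgeR adjusted p = 0.29) in WT. The interaction was -0.18 (edgeR adjusted p = 0.093) with the GC trend removed, -0.33 (edgeR adjusted p = 0.057) with the replicate block and -0.31 (edgeR adjusted p = 0.0505) with the stricter filter.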

How the results depend on the processing

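Depth was not limiting for these genes apart from NUSAP1, at 47 to 115 reads per library. Leaving out each library in turn gave 32 to 38 called genes for N108 against WT, 47 to 47 for M3 against WT and 38 to 42 for N108 against M3 without TNF, and 39 to 41, 45 to 47 and 30 to 39 with TNF. For the TNF response it gave 0 to 0 in WT, 0 to 7 in N108 and 0 to 0 in M3, and for the interactions 0 to 14 with N108 and 0 to 0 with M3. The 7 and the 14 came from leaving out N108 replicate 3 with TNF. In the 6 genotype comparisons every other setting tried stayed within 1.5 times the reported count (34 to 48 genes called). With only the groups compared in the fit, 2 genes were called for TNF in WT, and without a low-count filter 3 for TNF in N108. The interaction with N108 called 4 genes by DESeq2, 5 without a low-count filter, 0 with the stricter filter, 0 with the GC trend removed, and 0 with the replicate block or with both. The interaction with M3 called 1 gene, CENPA, with the GC trend removed and the replicate block together. The cause of these changes was not tested. Shares of all tested genes called in these other fits are not given here, so the counts are not set against them.

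Replicate numbers did not pair the libraries. After each gene's group mean was subtracted, same-numbered libraries of the groups compared had correlations of -0.063 to 0.10. Over all pairs of groups, the same number correlated best in 31 of 90 cases. With the replicate block, the genotype comparisons called 37, 47 and 41 genes without TNF and 41, 45 and 34 with TNF. Of 196 values of single genes over 2768 combinations with a setting, 2641 kept direction and side of the threshold, 59 lost the call, 50 gained one and 18 changed sign, and 0 of those 18 belonged to a called value. Over the libraries left out in turn, these values ran from -0.038 to 0.023 for CDC25B and -0.020 to 0.091 for UBE2C (N108 against M3 without TNF). They ran from -0.060 to 0.0053 for CDC25B, -0.045 to 0.025 for AURKB and -0.13 to 0.19 for MKI67 (N108 against WT with TNF), and from -0.046 to 0.089 for KIF11 and -0.075 to 0.052 for TOP2A (N108 against M3 with TNF). In the same comparisons AURKB was 0.017 with the stricter filter, KIF11 -0.00057 with only the groups compared, and TOP2A 0.094 with the GC trend removed and 0.094 with the replicate block added to that.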
